A study of Homo sapiens with 24 samples.

Results

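The BCL2 family genes described here were BCL2, BCL2L1, MCL1, BAX, PMAIP1, BMF, BIK, BBC3, BID and BCL2L11, 10 of the 57820 genes counted, taken by gene name from the count file of every library. RNA-seq was carried out on 24 libraries of human osteosarcoma cells in 8 groups of 3 biological replicates. WT and ID3-KO AID-DIvA cells (U2OS cells that carry a vector for the AsiSI restriction enzyme, which tamoxifen brings into the nucleus) were either untreated, or given mocetinostat, an inhibitor of class I HDACs, for 24 h and then drug-free medium for another 24 h (recovered). WT and ID3-KO U2OS cells were either untreated or given mocetinostat for 24 h and harvested without recovery, a stage inferred from the design text and the methods. All AID-DIvA groups share the AsiSI vector, and tamoxifen is not named for any RNA-seq library. The library names of the U2OS samples also carry the word DivA, so whether those cells hold the vector is not known. Stage and cell line label coincide and cannot be told apart. The sources give no mocetinostat dose for the RNA-seq and do not say whether each KO line was 1 clone. The titles and the study's text call the controls untreated, whereas panel titles in its supplement call them DMSO. Whether the controls received the vehicle is therefore not known. For the AID-DIvA libraries the titles and the treatment field of the labels contradict each other; the titles were followed, and every AID-DIvA response below would change its sign under the treatment field. The AID-DIvA libraries called untreated here would then be the treated ones. With the titles, more genes rose than fell beyond a log2 change of 1 after recovery (986 against 512 in WT and 997 against 521 in KO cells), as they did in treated U2OS cells (2958 against 1103 and 3086 against 1222). With the titles followed, PMAIP1, BCL2A1, HRK and BIRC3 were called higher in all 4 comparisons. BAX and BID, among others, moved in opposite directions under the 2 cell line labels. These values and gene counts take the titles as given, and which label is right was not tested.

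Proteins of the BCL2 family decide whether the outer mitochondrial membrane is opened to release cytochrome c and start apoptosis. The pro-survival members (BCL2, BCL-XL from BCL2L1, MCL1) hold the pore-forming effectors such as BAX in check, and the BH3-only members (NOXA from PMAIP1, BMF, BIK, PUMA from BBC3, BID, BIM from BCL2L11) bind and neutralise the pro-survival proteins or activate the effectors. HDAC inhibitors are known to change the transcription of several BH3-only genes, and ID3 acts by binding E proteins, transcription factors that recognise the E-box. RNA levels were measured here, not proteins or cell death.

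Across the 24 libraries the totals of counted fragments ran from 37878751 to 76906266 in AID-DIvA cells and from 46285533 to 70692114 in U2OS cells. ID3 was counted at 30.3 to 63.9 CPM in the KO libraries, with no KO library reaching the lowest WT library of the same label and treatment. Replicate 1 of the untreated WT U2OS cells stood apart, with a chi-square of 92.4 and 82 per gene against the other replicates of its group, compared with 4.06 between those and at most 24.5 within any other group. For several members, results that involve this library are also given without it. Results for genes other than the members are given with it only. Of 9 mesenchymal and osteoblast markers, 4 to 6 reached 1 TPM in each group, always with VIM, COL1A1, SPARC and RUNX2, whereas SP7 and COL1A2 stayed below 1 TPM in all groups and IBSP was at 0 counts in the untreated WT AID-DIvA cells. Their summed level was 1650 to 2190 TPM in untreated and 1070 to 1600 TPM in treated libraries. The epithelial list (summed 6.97 to 15.1 TPM, mostly EPCAM) and the leukocyte list (0.559 to 3.31 TPM, ITGAM at 1 TPM or more in treated groups only) were low. Their part in the results below was not tested.

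The promoters of 3 members are shown. PMAIP1 gave a rise shared by all treated groups, and BMF the response that differed between genotypes. BAX changed direction between U2OS and AID-DIvA cells and held the most CANNTG matches of the windows searched. Each window runs from 250 bases before to 50 bases after the RefSeq transcription start on GRCh38.p14, read on the strand of the gene; for BMF the start farthest upstream of 2 was taken. Capitals mark E-boxes (CANNTG, a palindromic pattern searched on both strands). The windows lie at chr18:59899746-59900045 (plus strand) for PMAIP1, chr15:40108830-40109129 (minus strand) for BMF and chr19:48954625-48954924 (plus strand) for BAX.
PMAIP1: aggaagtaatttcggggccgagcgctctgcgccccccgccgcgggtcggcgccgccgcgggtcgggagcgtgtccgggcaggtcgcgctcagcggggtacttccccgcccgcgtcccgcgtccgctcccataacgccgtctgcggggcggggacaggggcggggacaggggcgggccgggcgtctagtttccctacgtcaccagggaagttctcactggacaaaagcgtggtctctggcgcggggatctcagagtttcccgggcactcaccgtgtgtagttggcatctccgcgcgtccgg
BMF: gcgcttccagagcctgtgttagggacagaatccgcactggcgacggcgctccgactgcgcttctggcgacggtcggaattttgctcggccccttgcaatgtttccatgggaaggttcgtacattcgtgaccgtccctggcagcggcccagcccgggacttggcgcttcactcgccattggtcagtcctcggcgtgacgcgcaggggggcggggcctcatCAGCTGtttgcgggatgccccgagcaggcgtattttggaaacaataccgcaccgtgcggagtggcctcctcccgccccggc
BAX: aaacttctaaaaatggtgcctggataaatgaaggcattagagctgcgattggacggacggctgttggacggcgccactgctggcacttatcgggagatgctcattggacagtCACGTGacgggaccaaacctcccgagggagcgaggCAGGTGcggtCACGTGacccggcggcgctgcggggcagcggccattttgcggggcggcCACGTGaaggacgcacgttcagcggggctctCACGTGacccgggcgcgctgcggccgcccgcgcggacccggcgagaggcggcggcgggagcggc

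RefSeq windows were at hand for 8 of the 10 members, and MCL1 and BIK were not among them. Where a gene had several starts, the one farthest upstream was searched, of 2 for BCL2L1 and BMF and of 5 for BID. BAX held 5 E-boxes, BBC3 2, BMF 1 and BID 1, and the windows of PMAIP1, BCL2, BCL2L1 and BCL2L11 held none. Of all 35116 windows of 300 bases, with every start kept, 68.7% held an E-box. Its presence in 4 of 8 members was not above that share, though the sets differ in this choice of start. The GC box (GGGCGG, both strands) occurred 4 times in PMAIP1, 3 times in BCL2L11 and 2 times each in BMF and BAX, and in 45% of all windows. No member held the cAMP response element TGACGTCA (1.85% of all windows). These are letter matches, not measured sites. All but 1 of the BAX matches read CACGTG and the other CAGGTG, and which forms E proteins bind was not tested.

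Levels per length were compared with the deposited TPM values. BCL2L1 had the highest mean level in all 8 groups, between 221 ± 5.36 TPM in untreated WT U2OS cells and 397 ± 39.3 TPM in recovered KO AID-DIvA cells (SD, n = 3). In untreated WT U2OS cells its range of 216.8 to 226.9 TPM overlapped that of BAX, 172.5 to 237.8 TPM. BAX, MCL1 and PMAIP1 followed, then BID and BBC3, then BCL2L11 and BMF, and BCL2 and BIK were lowest in the untreated groups. In untreated WT AID-DIvA cells the order ran from BCL2L1 at 226 ± 9.69 TPM through BAX at 167 ± 4.80, MCL1 at 146 ± 5.52, PMAIP1 at 38.8 ± 2.81, BID at 19.7 ± 1.11, BBC3 at 16.9 ± 1.61, BCL2L11 at 13.7 ± 0.479, BMF at 8.18 ± 0.692 and BCL2 at 2.44 ± 0.281 to BIK at 1.65 ± 0.157 TPM (SD, n = 3), and no neighbours in this order overlapped. Treated U2OS cells had another order. There MCL1 (168 ± 0.489 TPM in WT and 159 ± 6.99 TPM in KO cells) stood above BAX (130 ± 1.21 and 148 ± 8.02), and BIK (7.11 ± 0.512 and 9.33 ± 1.31) stood above BCL2 (3.62 ± 0.475 and 4.77 ± 0.157). In the treated KO U2OS cells PMAIP1 reached 146 ± 5.53 TPM, and the ranges of MCL1 and BAX, and of BAX and PMAIP1, overlapped.

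**Figure D1:**
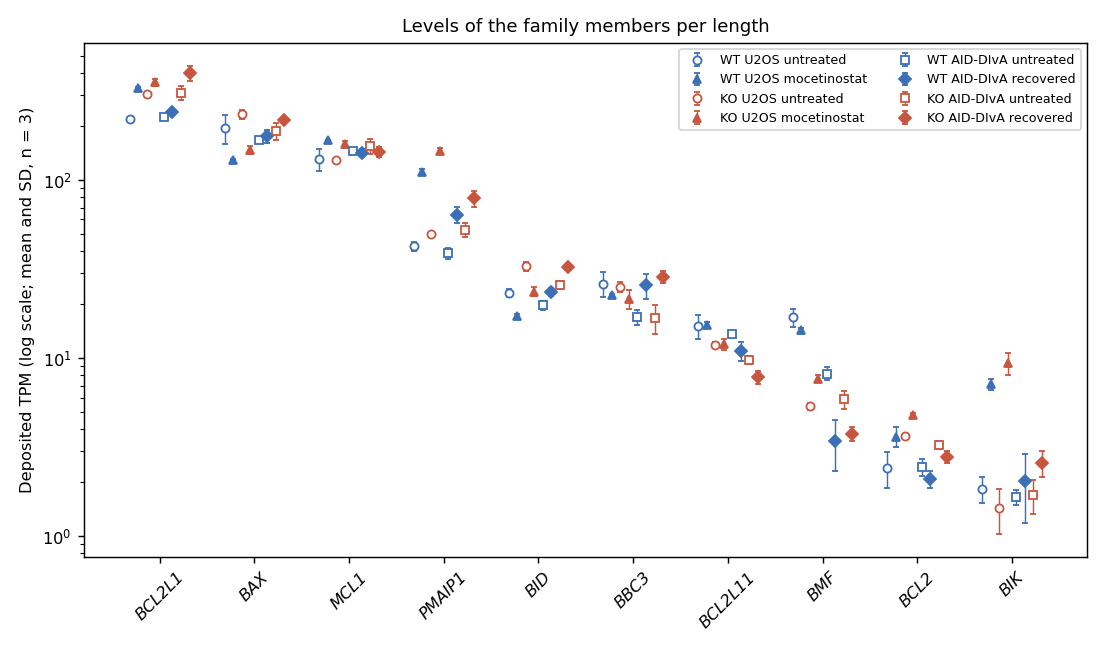
Levels of the 10 genes per length in the 8 groups. The y axis gives the deposited TPM on a log scale; points are means and bars SD of 3 libraries, blue WT and red KO, open untreated and filled treated. BCL2L1 has the highest mean in every group, and PMAIP1 and BIK rise toward their neighbours in the U2OS cells given mocetinostat.

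In the sentences that follow, levels are CPM (fragments per 1000000 of the library total scaled by the TMM factor within the cell line label), and differences are log2 fold changes with their standard errors from edgeR's quasi-likelihood test, fitted over all genes that passed the filter on low counts. All 10 members passed it in every comparison. A gene was called at a Benjamini-Hochberg adjusted p below 0.05, the study's own threshold. These are bulk samples, in which a smaller share of cells with a transcript and less transcript per cell cannot be told apart.

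At the end of treatment 5 of 10 members were called higher and 3 lower in WT U2OS cells, where 26% of all 21797 genes tested were called higher and 22.9% lower (48.9% in all). In KO U2OS cells 6 were called higher and 3 lower, against 35.8% and 34% of 21176 genes (69.9% in all). After recovery 5 were called higher and 2 lower in WT AID-DIvA cells (23.9% and 23% of 20289 genes, 46.9% in all), and 6 higher and 1 lower in KO AID-DIvA cells (20.2% and 19.9% of 20362 genes, 40.1% in all). The members' shares of 70% to 90% called therefore stood beside backgrounds of 40.1% to 69.9%, and with 10 genes nothing particular to the family is read from them. Their median log2 change was 0.09, 0.20, 0.16 and 0.37 in the same order, against -0.02 to 0.01 over all genes tested. Beyond a log2 change of 1, BIK and PMAIP1 rose and no member fell in both U2OS genotypes (background 13.6% higher and 5.06% lower in WT, 14.6% and 5.77% in KO cells). In recovered WT AID-DIvA cells BMF fell and no member rose by this much (background 2.52% and 4.86%), and in recovered KO AID-DIvA cells no member did either (2.56% lower, 4.9% higher).

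**Figure D2:**
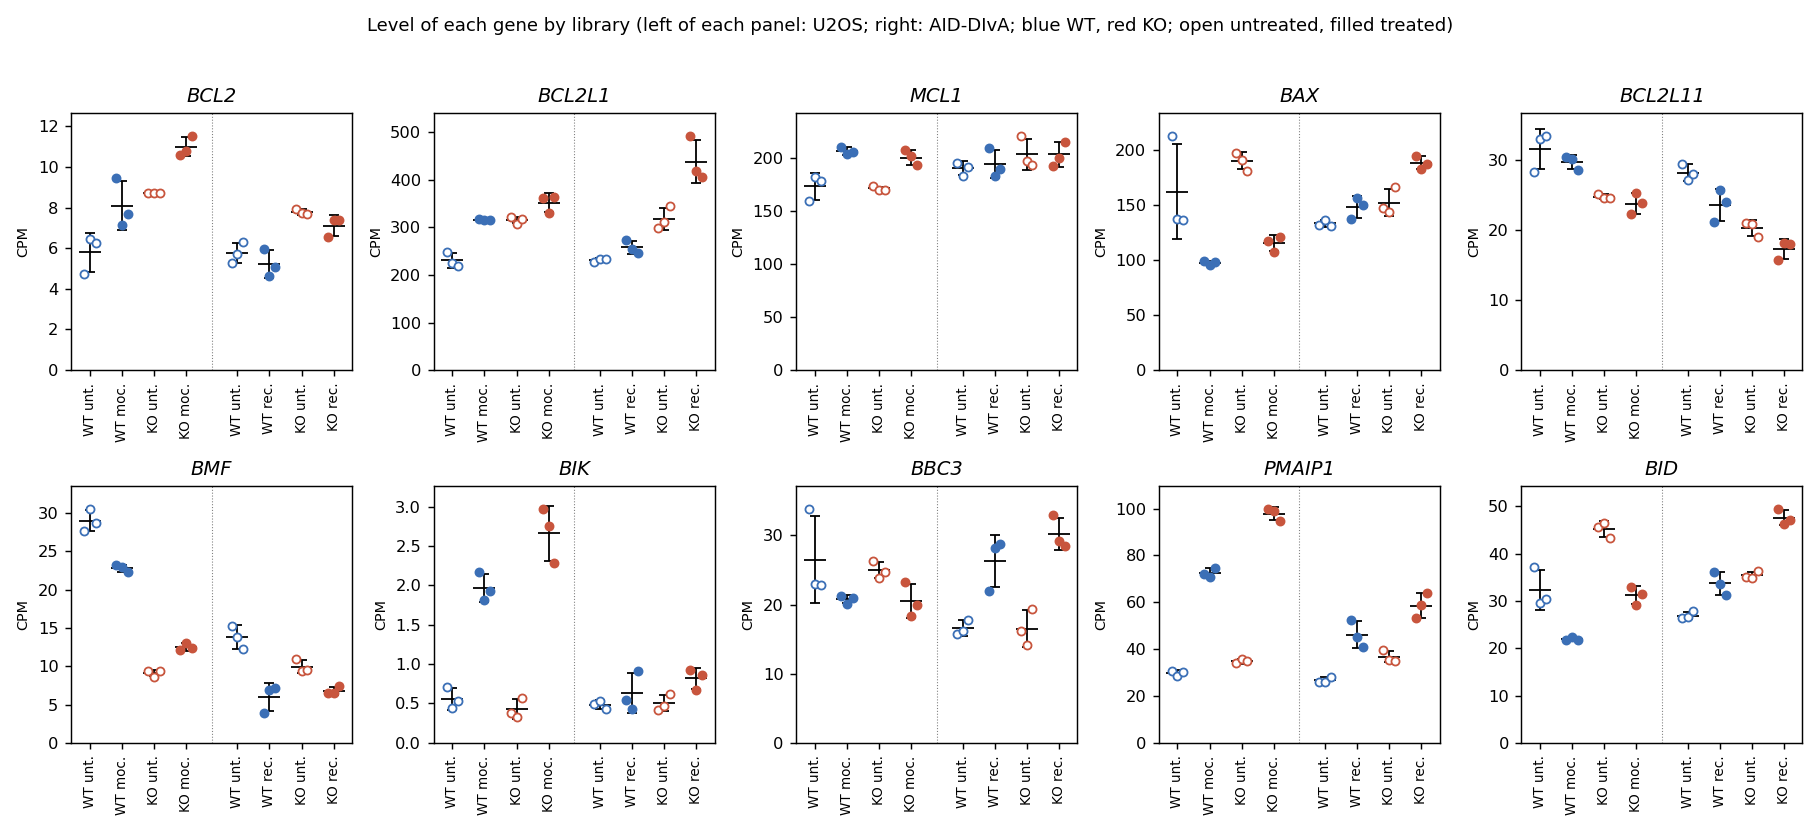
Level of each gene in each of the 24 libraries. Each panel is a gene, the y axis is CPM, U2OS groups stand left and AID-DIvA groups right of the dotted line, blue is WT and red KO, open circles are untreated and filled circles treated libraries, and bars give the mean and SD of 3. BMF in U2OS cells falls in WT (27.7 to 30.5 against 22.3 to 23.2 CPM) and rises in KO cells (8.62 to 9.37 against 12.1 to 13 CPM).

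Among the pro-survival members, BCL2L1 rose in all 4 treatment comparisons. BCL2L1 (ENSG00000171552.8, hg19 chr20:30252255-30311792, minus strand) encodes BCL-XL. In U2OS cells its libraries were at 249, 225 and 219 CPM in untreated WT, 317, 315 and 316 in treated WT, 321, 307 and 317 in untreated KO and 361, 330 and 364 CPM in treated KO cells. In AID-DIvA cells they were at 227, 233 and 234 CPM in untreated WT, 273, 255 and 246 in recovered WT, 299, 311 and 344 in untreated KO and 491, 418 and 406 CPM in recovered KO cells. Treated and untreated libraries did not overlap in any of the 4 comparisons, and the highest libraries were those of recovered KO cells. The log2 change was 0.46 ± 0.08 in WT and 0.16 ± 0.05 in KO U2OS cells (SE; edgeR adjusted p = 0.0016 and 0.0032), and 0.17 ± 0.05 in WT and 0.46 ± 0.08 in KO AID-DIvA cells (edgeR adjusted p = 0.008 and 0.0018). Fitted with all 4 AID-DIvA groups together, the WT AID-DIvA change of 0.159 was no longer called (edgeR adjusted p = 0.083).

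MCL1 (ENSG00000143384.8, hg19 chr1:150547032-150552066, minus strand), a short-lived pro-survival protein that NOXA binds, had the narrowest range of the 10 genes, 0.37 in log2 between its lowest and highest group mean. It rose at the end of treatment from 159, 182 and 178 to 210, 203 and 205 CPM in WT and from 173, 170 and 170 to 207, 202 and 193 CPM in KO U2OS cells, with no overlap. The log2 changes were 0.26 ± 0.08 and 0.23 ± 0.04 (edgeR adjusted p = 0.027 and 4.5e-05). The WT call was lost without untreated replicate 3 (edgeR adjusted p = 0.056) without treated replicate 1, 2 or 3 (0.11, 0.085 and 0.095), and with no filter on low counts (0.052). After recovery MCL1 lay between 183 and 220 CPM in all 12 AID-DIvA libraries, and the log2 differences of 0.04 ± 0.05 in WT and -0.01 ± 0.07 in KO cells did not pass the test (edgeR adjusted p = 0.56 and 0.96).

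BCL2 itself (ENSG00000171791.10, hg19 chr18:60790579-60987361, minus strand) was a low transcript, with 205 to 731 counts per library. Treated U2OS libraries were at 9.44, 7.12 and 7.68 CPM against 4.71, 6.43 and 6.23 in untreated WT cells, and at 10.6, 10.8 and 11.5 against 8.69, 8.7 and 8.69 CPM in untreated KO cells. Neither pair of groups overlapped, and BCL2 rose by 0.49 ± 0.16 in WT and 0.34 ± 0.07 in KO cells (log2; edgeR adjusted p = 0.035 and 2.1e-04). The WT call was lost without untreated replicate 3 (edgeR adjusted p = 0.055) or treated replicate 1 or 3 (0.14 and 0.078). Without untreated replicate 1, the library that stood apart, the WT change was 0.353 and still called (edgeR adjusted p = 0.0018). After recovery the log2 difference was -0.14 ± 0.11 in WT and -0.13 ± 0.08 in KO AID-DIvA cells (edgeR adjusted p = 0.31 and 0.25). Without recovered replicate 1, at 5.98 CPM the highest of its group, the WT difference of -0.251 was called (edgeR adjusted p = 0.026).

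The effector BAX moved in opposite directions in U2OS cells at the end of treatment and in AID-DIvA cells after recovery. Under the treatment field of the labels it would fall in both. BAX (ENSG00000087088.15, hg19 chr19:49458072-49465055, plus strand) forms the pore in the outer mitochondrial membrane. In U2OS cells it stood at 212, 137 and 136 CPM in untreated WT, 98.7, 95.6 and 97.9 in treated WT, 197, 191 and 181 in untreated KO and 117, 107 and 121 CPM in treated KO cells. Every treated library was below every untreated library of its genotype, and untreated WT replicate 1 was far above the other libraries of its group. BAX fell by 0.72 ± 0.17 in WT and by 0.72 ± 0.05 in KO U2OS cells (log2; edgeR adjusted p = 0.0087 and 1.0e-11). Without untreated WT replicate 1 the WT change was -0.489 (edgeR adjusted p = 2.8e-17).

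In AID-DIvA cells BAX was at 132, 136 and 131 CPM before and 137, 156 and 150 CPM after recovery in WT, and at 147, 143 and 166 before and 194, 182 and 187 CPM after recovery in KO cells. The groups did not overlap in either genotype, though in WT cells the lowest recovered library stood next to the highest untreated library. BAX rose by 0.16 ± 0.05 in WT and 0.31 ± 0.07 in KO cells (log2; edgeR adjusted p = 0.021 and 0.0058). The WT call was lost without recovered replicate 2 or 3 (edgeR adjusted p = 0.11 and 0.051), without untreated replicate 1 or 3 (0.08 and 0.093), and in the fit of all 4 AID-DIvA groups (0.071).

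Of the BH3-only genes, PMAIP1 rose in every treatment comparison. PMAIP1 (ENSG00000141682.11, hg19 chr18:57567180-57571538, plus strand) encodes NOXA, which binds MCL1. Its U2OS libraries were at 30.5, 28.7 and 30.4 CPM in untreated WT, 71.9, 70.9 and 74.7 in treated WT, 33.9, 35.9 and 34.8 in untreated KO and 99.8, 99 and 94.7 CPM in treated KO cells. Its AID-DIvA libraries were at 26, 26.1 and 28.1 CPM in untreated WT, 52.5, 45.1 and 41 in recovered WT, 39.5, 35.5 and 35.1 in untreated KO and 53.1, 58.9 and 63.9 CPM in recovered KO cells. In all 4 comparisons the treated libraries lay wholly above the untreated ones. The fold change at the end of treatment was 2.43 in WT and 2.81 in KO U2OS cells (log2 1.28 ± 0.07 and 1.49 ± 0.05, edgeR adjusted p = 6.5e-06 and 1.0e-17). After recovery it was 1.74 in WT and 1.6 in KO AID-DIvA cells (log2 0.80 ± 0.08 and 0.68 ± 0.08, edgeR adjusted p = 3.9e-06 and 2.0e-04). The 4 PMAIP1 calls held in every alternative fit and with each library left out in turn.

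On the scale of log2(CPM + 0.5), BMF had the widest range between its lowest and highest group mean, 2.14. The added 0.5 narrows the range of BIK (1.75), whose group means ran from 0.428 to 2.66 CPM, against 5.99 to 29 CPM for BMF. The order of these genes therefore depends on that scale. BMF (ENSG00000104081.9, hg19 chr15:40380091-40401093, minus strand) encodes a BH3-only protein that is held at the cytoskeleton in healthy cells. In WT U2OS cells it stood at 27.7, 30.5 and 28.7 CPM untreated and at 23.2, 23 and 22.3 CPM treated. In KO U2OS cells it stood at 9.33, 8.62 and 9.37 CPM untreated and at 12.1, 13 and 12.4 CPM treated. The gene fell in WT and rose in KO cells with no overlap in either, and the treated KO libraries still lay below all WT U2OS libraries. The log2 change was -0.34 ± 0.07 in WT and 0.46 ± 0.07 in KO U2OS cells (edgeR adjusted p = 0.0058 and 3.7e-06).

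After recovery BMF was lower in both genotypes. WT AID-DIvA libraries went from 15.3, 13.8 and 12.2 CPM to 3.9, 6.94 and 7.14 CPM, and KO libraries from 10.9, 9.43 and 9.45 CPM to 6.53, 6.51 and 7.43 CPM. Recovered and untreated libraries did not overlap, and recovered WT replicate 1 was the lowest of the 12 AID-DIvA libraries. BMF fell by 1.20 ± 0.21 in WT and by 0.54 ± 0.10 in KO cells (log2; edgeR adjusted p = 0.0028 and 0.0016). A gene on the opposite strand, RP11-521C20.3, overlaps BMF, and the counts from either strand were 0.864 to 0.92 times those from the strand of BMF. With the counts of its own strand the 4 changes were -0.330 and 0.432 in U2OS and -1.211 and -0.512 in AID-DIvA cells, all still called.

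BIK showed the largest fold change of the 10 genes and the lowest counts, 19 to 170 per library. BIK (ENSG00000100290.2, hg19 chr22:43506754-43525718, plus strand) encodes a BH3-only protein of the endoplasmic reticulum. It was at 0.712, 0.442 and 0.529 CPM in untreated and 2.17, 1.82 and 1.93 CPM in treated WT U2OS cells, and at 0.382, 0.331 and 0.572 CPM in untreated and 2.97, 2.75 and 2.28 CPM in treated KO U2OS cells. The treated libraries were all above the untreated ones, by a fold change of 3.53 in WT and 6.19 in KO cells (log2 1.82 ± 0.21 and 2.63 ± 0.20, edgeR adjusted p = 3.0e-04 and 6.1e-11).

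In AID-DIvA cells BIK was at 0.494, 0.534 and 0.428 CPM in untreated WT, 0.547, 0.427 and 0.913 in recovered WT, 0.422, 0.468 and 0.619 in untreated KO and 0.925, 0.671 and 0.861 CPM in recovered KO cells. The WT groups overlapped, and the KO groups did not. The log2 difference was 0.41 ± 0.27 in WT and 0.68 ± 0.22 in KO cells (edgeR adjusted p = 0.24 and 0.03). The KO call was lost without recovered replicate 1 or 3 (edgeR adjusted p = 0.06 and 0.072), without untreated replicate 1 or 2 (0.097 and 0.099), and with DESeq2 (adjusted p = 0.051). Over all libraries together, 11.8% of the fragments counted on BIK by strand came from the opposite strand. By library, the counts from either strand were 1 to 2.08 times those from the strand of BIK. With its own strand alone the changes were 2.028 and 3.027 in U2OS and 0.580 and 0.857 in AID-DIvA cells, on the same side of the threshold as before.

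BBC3 and BID, like BAX, rose after recovery in both genotypes and fell at the end of treatment, except that the BBC3 decrease in WT U2OS cells was not called. BBC3 (ENSG00000105327.11, hg19 chr19:47724081-47736023, minus strand) encodes PUMA, which binds all of the pro-survival proteins named above. It was at 33.8, 22.9 and 22.8 CPM in untreated and 21.2, 20.1 and 20.9 CPM in treated WT U2OS cells, and at 26.3, 23.9 and 24.7 CPM in untreated and 23.3, 18.4 and 19.9 CPM in treated KO U2OS cells. It fell by 0.28 ± 0.07 in KO cells (log2; edgeR adjusted p = 0.0015), a call lost when all 4 U2OS groups were fitted together (0.084). In WT cells the difference of -0.35 ± 0.15 was not called (edgeR adjusted p = 0.099). It was called in the fit of all 4 U2OS groups (-0.352, edgeR adjusted p = 0.033) and, at -0.140, without untreated replicate 1 (0.029). After recovery BBC3 rose from 15.7, 16.1 and 17.8 CPM to 22, 28.2 and 28.8 CPM in WT and from 16.2, 14.1 and 19.3 CPM to 32.9, 29.2 and 28.5 CPM in KO AID-DIvA cells. No recovered library overlapped an untreated one, and the fold change was 1.6 in WT and 1.83 in KO cells (log2 0.67 ± 0.09 and 0.87 ± 0.11, edgeR adjusted p = 7.1e-05 and 2.7e-04).

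BID (ENSG00000015475.14, hg19 chr22:18216906-18257536, minus strand) links death receptors to mitochondria once caspase-8 has cut it. It went from 37.2, 29.5 and 30.4 CPM to 21.8, 22.4 and 21.8 CPM in WT and from 45.6, 46.5 and 43.3 CPM to 33, 29.2 and 31.5 CPM in KO U2OS cells. After recovery it went from 26.4, 26.6 and 27.8 CPM to 36.2, 33.6 and 31.2 CPM in WT and from 35.1, 34.8 and 36.3 CPM to 49.4, 46.2 and 47.2 CPM in KO AID-DIvA cells. Treated and untreated libraries were separate in all 4 comparisons. BID fell by 0.55 ± 0.10 and by 0.53 ± 0.05 in WT and KO U2OS cells (log2; edgeR adjusted p = 0.0029 and 9.9e-09), and rose by 0.33 ± 0.06 and 0.43 ± 0.06 in WT and KO AID-DIvA cells (edgeR adjusted p = 5.6e-04 in each). Untreated WT U2OS replicate 1 was the highest of its group here too, and without it the WT change was -0.445 (edgeR adjusted p = 3.1e-10).

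BCL2L11 (ENSG00000153094.17, hg19 chr2:111876955-111926024, plus strand) encodes BIM, an activator of BAX that FOXO factors are known to induce. Its U2OS libraries ranged from 28.3 to 33.4 CPM in untreated WT, 28.6 to 30.5 in treated WT, 24.6 to 25.1 in untreated KO and 22.3 to 25.3 CPM in treated KO cells, so that treated and untreated libraries overlapped. The log2 differences of -0.08 ± 0.09 in WT and -0.05 ± 0.06 in KO cells did not pass the test (edgeR adjusted p = 0.48 and 0.42). Without untreated WT replicate 1 the WT difference was -0.162 and called (edgeR adjusted p = 0.0044). In AID-DIvA cells it was at 29.4, 27.1 and 28 CPM in untreated and 21.1, 25.8 and 24 CPM in recovered WT cells, and at 21, 20.9 and 19 CPM in untreated and 15.7, 18.2 and 18 CPM in recovered KO cells, with no overlap in either genotype. The WT decrease of -0.25 ± 0.07 was called (edgeR adjusted p = 0.01) but not without untreated replicate 1 (0.056). The KO difference of -0.23 ± 0.08 was just outside the threshold (edgeR adjusted p = 0.054), and was called without untreated replicate 3 (0.04).

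**Figure D3:**
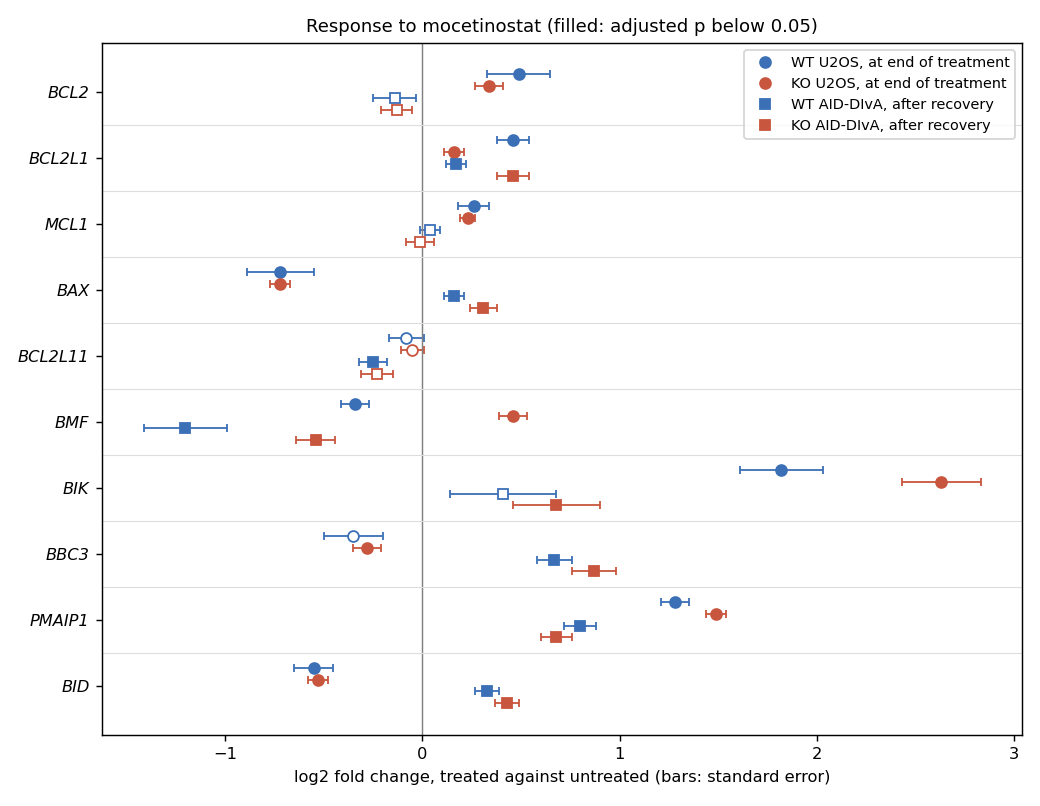
Response of the 10 genes to mocetinostat. The x axis is the log2 fold change of treated against untreated libraries, bars are standard errors, circles U2OS at the end of treatment and squares AID-DIvA after recovery, blue WT and red KO, filled where the adjusted p is below 0.05. PMAIP1 lies to the right of 0 in all 4 groups, and BAX and BID change side between U2OS and AID-DIvA cells. BMF in KO U2OS cells (0.46) is the only positive BMF value.

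The responses were then compared between stages within each genotype, as the difference of their log2 changes in a fit of all 24 libraries. A member can differ in this test while it moves the same way at both stages. In WT cells 8 of 10 members differed (45.4% of 23087 genes tested), 3 higher and 5 lower after recovery in AID-DIvA cells relative to the end of treatment in U2OS cells. In KO cells 9 of 10 differed (46% of the same genes), 4 higher and 5 lower. BAX, BBC3 and BID were relatively higher after recovery in both genotypes, by a log2 difference of responses of 0.88 ± 0.15, 1.02 ± 0.18 and 0.88 ± 0.11 in WT cells (edgeR adjusted p = 2.8e-05, 6.3e-05 and 2.2e-07). In KO cells these were 1.04 ± 0.15, 1.16 ± 0.18 and 0.96 ± 0.11 (edgeR adjusted p = 2.8e-06, 1.2e-05 and 4.0e-08). Without untreated WT U2OS replicate 1 the WT differences were 0.651, 0.821 and 0.783, all still called. Beyond a log2 difference of 1, BBC3 was higher and BIK lower in WT cells (background 5.22% and 10.6%), and BAX and BBC3 were higher and BMF and BIK lower in KO cells (5.62% and 11%).

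BCL2, PMAIP1, BMF and BIK were relatively lower after recovery in both genotypes. For PMAIP1 the difference of responses was -0.49 ± 0.11 in WT and -0.81 ± 0.11 in KO cells (edgeR adjusted p = 6.3e-04 and 7.7e-07), and for BIK it was -1.42 ± 0.35 and -1.94 ± 0.35 (0.0016 and 5.0e-05). BCL2L1 had opposite signs in the genotypes, -0.29 ± 0.10 in WT and 0.31 ± 0.10 in KO cells (edgeR adjusted p = 0.023 and 0.015). The WT value was not called without recovered WT replicate 2 or 3 (edgeR adjusted p = 0.05 and 0.074) or untreated WT U2OS replicate 3 (0.055). The KO value was not called without recovered KO replicate 1 (0.061) or treated KO U2OS replicate 2 (0.05), or with library totals in place of TMM (0.078). In all of these differences the stage coincides with the label of the cell line, and the AID-DIvA responses follow the titles.

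In the libraries whose titles give no treatment, KO and WT cells differed in several members. For AID-DIvA cells these are the libraries that the treatment field calls treated, and under that field the comparison would be one after recovery. In untreated AID-DIvA cells 5 of 10 were called higher and 2 lower in KO cells (36.7% of 20441 genes called, 18.6% higher and 18.1% lower). In untreated U2OS cells 3 were called higher and 2 lower (15.2% of 20621 genes called, 6.56% higher and 8.63% lower). BCL2, BCL2L1 and BID were higher and BMF and BCL2L11 lower in KO cells of both labels. Beyond a log2 difference of 1 only BMF in U2OS cells was called, and lower (background 1.42% higher and 2.84% lower in U2OS, 2.27% and 2.3% in AID-DIvA cells). The U2OS count rested on the libraries used. It was 7 without untreated WT replicate 1 and 3 without WT replicate 2 or 3. It was 1 without KO replicate 1 or 3 and 2 without KO replicate 2. The share of all genes called in these fits was not worked out, so the 15.2% above is not their background.

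BMF gave the largest genotype difference. In U2OS cells the untreated KO libraries (8.62 to 9.37 CPM) lay far below the WT libraries (27.7 to 30.5 CPM), a fold of 0.314 (log2 -1.67 ± 0.08, edgeR adjusted p = 4.0e-05), and this call held with each library left out. In AID-DIvA cells the KO libraries (9.43 to 10.9 CPM) were also below the WT libraries (12.2 to 15.3 CPM), by a log2 difference of -0.46 ± 0.08 (edgeR adjusted p = 4.1e-04). The untreated WT cells of the labels themselves stood apart in deposited TPM, at 16.9 ± 1.99 in U2OS and 8.18 ± 0.692 in AID-DIvA cells (SD, n = 3), a difference between labels that was not tested.

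BCL2L1 was higher in KO cells by 0.46 ± 0.05 in AID-DIvA (edgeR adjusted p = 2.3e-06) and 0.45 ± 0.07 in U2OS cells (0.0071). BCL2 was higher by 0.43 ± 0.08 and 0.59 ± 0.13 (edgeR adjusted p = 3.8e-04 and 0.024), and BID by 0.40 ± 0.05 and 0.48 ± 0.10 (9.9e-06 and 0.017). BCL2L11 was lower by a log2 difference of -0.47 ± 0.06 in AID-DIvA and -0.35 ± 0.09 in U2OS cells (edgeR adjusted p = 9.7e-06 and 0.033). The KO and WT libraries did not overlap for any of these 4 genes in either label, which is not read as particular to them. In U2OS cells the BCL2 call was lost without any KO library (edgeR adjusted p = 0.095 to 0.099), the BCL2L1 call without KO replicate 1 or 3 (0.052 and 0.057), and the BID call (0.058 to 0.091) and the BCL2L11 call (0.095 to 0.15) without any library other than WT replicate 1.

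PMAIP1 was higher in KO AID-DIvA cells by 0.46 ± 0.06 (edgeR adjusted p = 1.1e-05). In U2OS cells its difference of 0.22 ± 0.07 missed the threshold (edgeR adjusted p = 0.069) with libraries that did not overlap, and was called without WT replicate 1 (1.4e-04), with DESeq2 (adjusted p = 0.037) and in the fit of all 4 groups (0.011). BAX was higher in KO AID-DIvA cells by 0.19 ± 0.05 (edgeR adjusted p = 0.0091), a call lost without WT replicate 3 (0.063). In U2OS cells BAX was at 181 to 197 CPM in KO against 212, 137 and 136 CPM in WT libraries, a difference of 0.23 ± 0.17 that was not called (edgeR adjusted p = 0.4) but was 0.473 and called without WT replicate 1 (9.3e-14). The MCL1, BIK and BBC3 libraries overlapped between genotypes in both labels, with log2 differences between -0.38 and 0.11 and none called (edgeR adjusted p = 0.12 to 0.97). MCL1 alone of these was called with a library left out, at 0.137 in AID-DIvA cells without KO replicate 3 (edgeR adjusted p = 0.0062).

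**Figure D4:**
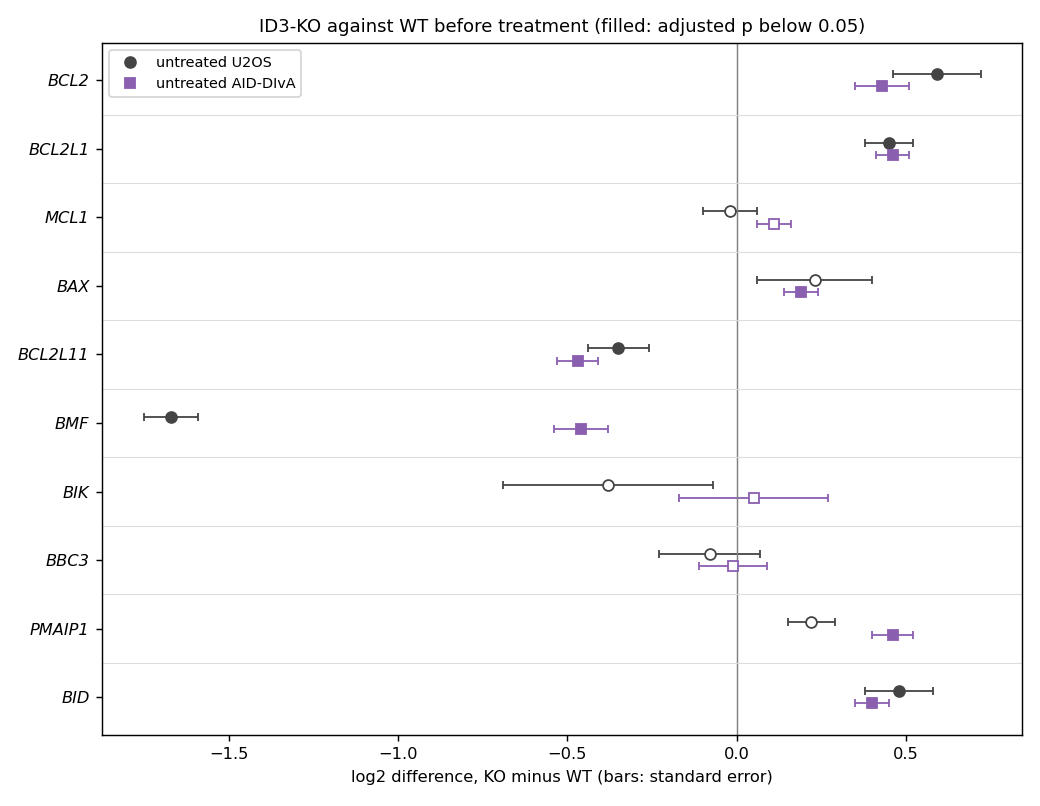
Difference between ID3-KO and WT cells in the libraries whose titles give no treatment. The x axis is the log2 difference, KO minus WT, bars are standard errors, circles U2OS and squares AID-DIvA cells, filled where the adjusted p is below 0.05. BMF in U2OS cells (-1.67) lies farthest from 0, and BCL2, BCL2L1 and BID are above 0 and BCL2L11 below 0 in both labels.

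The interaction of genotype and treatment tests whether KO and WT cells responded differently. In U2OS cells BMF was the only member called (2.15% of 22647 genes tested, 1.1% higher and 1.06% lower). Its response in KO cells was higher than in WT cells by 0.80 ± 0.09 in log2 (edgeR adjusted p = 2.8e-04), as the libraries above showed, and it was called without each of the 12 libraries in turn. In AID-DIvA cells the same difference was 0.66 ± 0.24 and not called (edgeR adjusted p = 0.27), and recovered WT replicate 1 was the lowest BMF library. No member was called there by edgeR with the filter on low counts or by DESeq2 (1.21% of 21265 genes tested by edgeR, 0.762% higher and 0.451% lower), and 2 members, BCL2L1 and BMF, had an unadjusted p below 0.05. Without the filter on low counts BMF (0.678, edgeR adjusted p = 3.2e-04) and BCL2L1 (0.325, 0.014) were called.

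BCL2L1 had interactions of opposite sign, -0.29 ± 0.09 in U2OS and 0.30 ± 0.10 in AID-DIvA cells, neither of them called (edgeR adjusted p = 0.13 and 0.19). Without untreated WT U2OS replicate 1 the U2OS value was -0.349 and called (4.0e-05). BAX gave 0.01 ± 0.19 in U2OS cells with all libraries and -0.233 without that replicate, where it was called (edgeR adjusted p = 0.013). For BIK the U2OS value was 0.81 ± 0.31 and for PMAIP1 0.21 ± 0.08 (edgeR adjusted p = 0.27 and 0.25). The other interactions lay between -0.15 and 0.28 in both labels, with edgeR adjusted p of 0.52 or more; a p above the threshold does not show that the responses were alike.

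**Figure D5:**
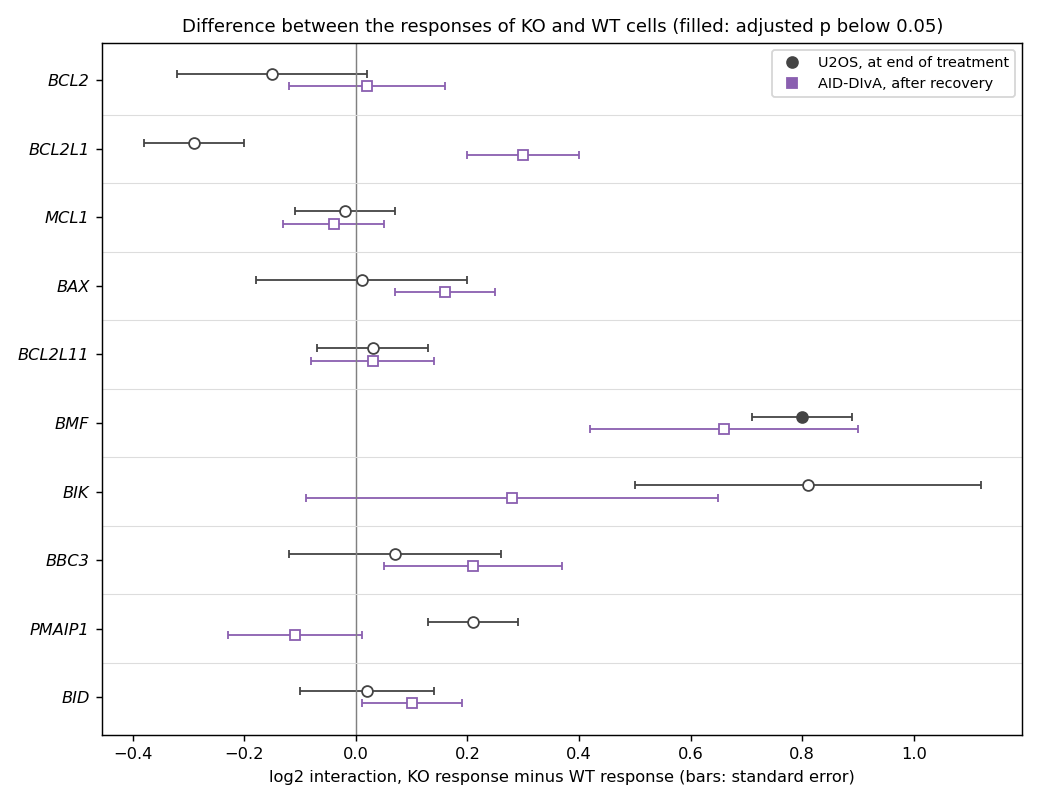
Responses of KO cells set against those of WT cells. The x axis is the log2 interaction, KO response minus WT response, bars are standard errors, circles U2OS at the end of treatment and squares AID-DIvA after recovery, filled where the adjusted p is below 0.05. Only BMF in U2OS cells (0.80) is filled, and BCL2L1 lies on opposite sides of 0 in the labels (-0.29 and 0.30).

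The rest of the BCL2 family and the steps downstream were read from fixed lists. Of 11 other family members, 10 were tested in WT and KO U2OS cells, with 2 called higher and 4 lower in WT and 4 higher and 4 lower in KO cells (median log2 0.07 and 0.05). These are 60% and 80% of those tested, beside 48.9% and 69.9% of all genes. After recovery 4 of 10 tested were higher and 1 lower in WT and 2 of 9 higher in KO AID-DIvA cells (median log2 0.13 and -0.01), or 50% and 22.2% beside 46.9% and 40.1% of all genes. The WT count of 5 was 3 without recovered replicate 2 and in the fit of all 4 AID-DIvA groups. BCL2A1, a pro-survival member, rose from 0.239 ± 0.167 to 3.34 ± 0.116 CPM in WT U2OS and from 0.241 ± 0.0318 to 2.69 ± 1.18 CPM in WT AID-DIvA cells (SD, n = 3; log2 3.75 ± 0.38 and 3.50 ± 0.36, edgeR adjusted p = 1.4e-04 and 2.3e-05), and was also called higher in KO cells of both labels. HRK, a BH3-only gene, rose in WT and KO U2OS and in WT and KO AID-DIvA cells, by 0.38 ± 0.10, 0.66 ± 0.08, 0.51 ± 0.09 and 1.20 ± 0.10 (edgeR adjusted p = 0.018, 2.3e-07, 6.0e-04 and 1.2e-05). BAD, BCL2L2, BCL2L13 and BOK fell in U2OS cells of both genotypes. HRK, which stood at 3.85 ± 0.44 CPM before and 8.88 ± 0.212 CPM after recovery in KO and at 3.03 ± 0.0401 and 4.29 ± 0.229 CPM in WT AID-DIvA cells (SD, n = 3), was also called in the AID-DIvA interaction (0.70 ± 0.13, edgeR adjusted p = 0.013).

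Of 12 caspase and apoptosome genes, 4 rose and 3 fell in WT and 7 rose and 3 fell in KO U2OS cells, and 3 rose and 5 fell in WT and 2 rose and 3 fell in KO AID-DIvA cells. The shares called were 58.3% and 83.3% in U2OS cells, beside 48.9% and 69.9% of all genes, and 66.7% and 41.7% in AID-DIvA cells, beside 46.9% and 40.1%. The KO AID-DIvA count of 5 was 2 without recovered replicate 2 or untreated replicate 1 or 2, and 3 without recovered replicate 3. Cytochrome c (CYCS) rose by 0.50 ± 0.10 in WT and 0.73 ± 0.04 in KO U2OS cells (log2; edgeR adjusted p = 0.0037 and 9.4e-13). APAF1, the scaffold of the apoptosome, fell after recovery by 0.68 ± 0.06 in WT and by 0.96 ± 0.13 in KO AID-DIvA cells (edgeR adjusted p = 4.8e-07 and 3.6e-04). At the end of treatment APAF1 rose by 0.22 ± 0.05 in KO U2OS cells (edgeR adjusted p = 9.7e-04), and its difference of 0.42 ± 0.16 in WT U2OS cells was not called (0.058). DFFA, the inhibitor of the apoptotic nuclease, rose in all 4 comparisons, by log2 changes of 0.33 to 0.58.

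Of 6 genes for inhibitors of apoptosis, BIRC3 rose most, from 4.32 ± 0.74 to 34 ± 1.12 CPM in WT and from 3.14 ± 0.227 to 37.8 ± 3.09 CPM in KO U2OS cells, and from 2.42 ± 0.0314 to 12.3 ± 2.07 CPM in WT and from 2.82 ± 0.214 to 28.4 ± 5.56 CPM in KO AID-DIvA cells (SD, n = 3). The log2 changes were 2.98, 3.59, 2.35 and 3.33 (SE 0.13, 0.08, 0.12 and 0.15; edgeR adjusted p = 3.0e-06, 2.8e-20, 5.3e-09 and 4.4e-07). BIRC5 (survivin), a gene of dividing cells, fell in all 4, by 0.61 ± 0.14, 0.49 ± 0.04, 0.65 ± 0.05 and 0.86 ± 0.08. The list as a whole had 1 gene called higher and 3 lower in WT and 2 higher and 3 lower in KO U2OS cells, and 3 higher and 1 lower in WT and 2 higher and 1 lower in KO AID-DIvA cells. That is 66.7% and 83.3% in U2OS cells, beside 48.9% and 69.9% of all genes, and 66.7% and 50% in AID-DIvA cells, beside 46.9% and 40.1%. The WT U2OS count of 4 was 2 without treated replicate 3.

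Of 7 transcription factors known to act on BH3-only genes, 2 were higher and 3 lower in WT and 3 higher and 3 lower in KO U2OS cells (71.4% and 85.7%, beside 48.9% and 69.9% of all genes). FOXO1 rose from 5.39 ± 1.15 to 19 ± 0.329 CPM in WT and from 4.75 ± 0.336 to 17.6 ± 1.72 CPM in KO U2OS cells (SD, n = 3; log2 1.82 ± 0.15 and 1.89 ± 0.08, edgeR adjusted p = 5.8e-05 and 3.5e-15). TP73 fell by 1.15 ± 0.08 and 1.46 ± 0.07 in the same cells (edgeR adjusted p = 2.5e-05 and 5.3e-15). After recovery 2 of 6 tested were higher and 1 lower in WT and 1 of 7 higher and 1 lower in KO AID-DIvA cells (50% and 28.6%, beside 46.9% and 40.1% of all genes). E2F1 was higher in both (0.30 ± 0.05 and 0.22 ± 0.07, edgeR adjusted p = 4.0e-04 and 0.038). The KO count of 2, E2F1 included, was 0 without recovered replicate 2 or untreated replicate 1, and the count was 1 without recovered replicate 3 or untreated replicate 2. At the end of treatment E2F1 fell by 0.60 ± 0.12 in WT and by 0.31 ± 0.05 in KO U2OS cells (edgeR adjusted p = 0.0048 and 1.9e-06).

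PMAIP1, BMF and BIK had the widest ranges between group means of log2(CPM + 0.5), at 1.76, 2.14 and 1.75. The genes most like them were sought among 15593 genes by Pearson correlation of log2(CPM + 0.5) over the 24 libraries. For PMAIP1 they were MAP1LC3B (0.982), CLDN1 (0.980) and PPARG (0.975). For BMF they were IGFBP5 (0.945), RASL11B (0.908) and PLEKHG1 (0.907), and for BIK they were POU4F2, LRP2 and ATP6V1C2 (0.965 each). The libraries share their 8 groups, so these values describe the group means for the most part and carry no test.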

How the data were processed

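Stranded total RNA libraries were read in pairs, aligned with STAR (hg19/GRCh37, Roddy workflow) and counted per gene with featureCounts; the versions are not given in the sources used here. The authors deposited, per library, the counts from either strand and by strand, and TPM values, without pooling. The counts of either strand were used, except where the strand of the gene is named. The authors deposited several TPM columns, of which the one that sums to 1000000 was used.

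Counts were tested in edgeR 4.0.16 (R 4.3.3) with TMM, filterByExpr, robust glmQLFit and glmQLFTest, with Benjamini-Hochberg adjustment over all genes tested. Treatment and genotype comparisons used the 6 libraries concerned, interactions the 12 of a cell line label and differences between stages all 24. Alternatives were DESeq2 1.42.0, its size factors, library totals, other filters (none, or 10 counts in every library), counts of the gene's strand, wider fits, a replicate block and each library left out. The code was tested on simulated data. Standard errors were the log2 value divided by the square root of F. Tests measure the spread between 3 libraries per group.

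The members and gene lists were chosen with earlier results of these data known. All members were named; of each list, up to 4 called genes per treatment comparison with the largest change and a mean of at least 1 CPM; and the 3 genes most correlated with each of the 3 members of widest range. A BCL2A1, HRK, APAF1 or E2F1 value outside this rule is given to complete its set of comparisons. For the same reason BCL2L13 is named in WT and BOK in KO U2OS cells. Values of some list genes that the rule names are not reported here. Replicate numbers did not pair the libraries. Total counts ran from 37878751 to 76906266. Counting error depends on a gene's own counts per library, which reached lowest in BIK (19 to 170), then BCL2 (205 to 731) and BMF (214 to 2139).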

Additional observations from a re-analysis of the deposited data

Results flagged for a closer look

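BMF responded differently in ID3-KO and WT U2OS cells, by a tested interaction of 0.80 in log2 (edgeR adjusted p = 2.8e-04).

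The responses of 8 members in WT cells differed between AID-DIvA cells after recovery and U2OS cells at the end of treatment, each by a test of the difference itself in edgeR. The log2 differences were 1.02 for BBC3, 0.88 for BAX, 0.88 for BID, -0.29 for BCL2L1, -0.49 for PMAIP1, -0.63 for BCL2, -0.85 for BMF and -1.42 for BIK. In KO cells 9 members differed in the same way, by 1.16 for BBC3, 1.04 for BAX, 0.96 for BID, 0.31 for BCL2L1, -0.23 for MCL1, -0.46 for BCL2, -0.81 for PMAIP1, -1.0 for BMF and -1.94 for BIK. In these differences, stage and cell line label cannot be told apart. The background was 45.4% of genes in WT and 46% in KO cells, and the MCL1 value in KO cells (edgeR adjusted p = 0.045) was not called when any of 17 of the 24 libraries was left out.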

How the results depend on the processing

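Over the single members, 748 of 780 values kept their direction and their side of the threshold under the alternative fits. Of the others, 12 lost and 10 gained a call and 10 changed sign. With each library left out, 979 of 1080 values kept both, 54 lost and 10 gained a call and 37 changed sign. A value that changed sign is counted only as such, also where it gained a call. The cause of these changes was not tested, beyond the smaller number of samples. Depth limits BIK most, with 19 to 170 counts.

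With a log2 change beyond 1 also required, the members called numbered 1 in WT AID-DIvA (0 higher, 1 lower), 0 in KO AID-DIvA, 2 in WT and 2 in KO U2OS cells (2 higher and 0 lower in each), 0 and 1 in the untreated AID-DIvA and U2OS genotype comparisons (the latter lower), 0 in the U2OS interaction, and 2 and 4 in the differences between stages in WT (1 higher, 1 lower) and KO cells (2 higher, 2 lower). Fitted with all 4 groups, 3 members were higher in WT and 2 lower in KO AID-DIvA cells; library totals also gave 2 lower in the latter. Without a filter 2 members were called in the AID-DIvA interaction, both higher.

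The replicate numbers did not pair the samples (not every pair correlated above 0.1; in KO U2OS cells 6 of 6 libraries were closest to their own number). With a replicate block, 3 members were higher in WT U2OS cells (MCL1, adjusted p = 0.061, and BCL2, 0.076, were lost) and 1 was lower in untreated U2OS KO cells (BCL2L11 was lost, 0.075); MCL1 in the KO difference between stages gave 0.051.

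With each library left out, 1 to 3 members were lower in WT and 1 to 2 in KO AID-DIvA cells. In WT U2OS cells 3 to 5 were higher and 3 to 5 lower. Between untreated U2OS genotypes 1 to 7 differed (0 to 5 higher, 1 to 2 lower). In the U2OS interaction 1 to 3 were called (0 to 2 lower). The share of all genes called was not worked out for the alternative or left-out fits, so their counts have no background of their own.

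No value that changed sign had been called. MCL1 in KO AID-DIvA cells was 0.007 with DESeq2, 0.007 with its size factors and 0.001 without a filter. BCL2L11 was 0.007 in WT and 0.030 in KO U2OS cells with library totals. BBC3 between untreated AID-DIvA genotypes was 0.001 without a filter and 0.003 on its strand. BAX in the U2OS interaction was -0.014 with library totals, -0.010 on its strand and -0.012 with the replicate block. With each library left out, the values that changed sign lay in these ranges: MCL1 -0.019 to 0.078 in WT and -0.043 to 0.068 in KO AID-DIvA cells; BIK -0.113 to 0.153 and BBC3 -0.140 to 0.104 between untreated AID-DIvA genotypes, and MCL1 -0.077 to 0.024 and BBC3 -0.179 to 0.125 between untreated U2OS genotypes. In the AID-DIvA interaction they were -0.056 to 0.132 for BCL2, -0.046 to 0.095 for BCL2L11 and -0.074 to 0.029 for MCL1. In the U2OS interaction they were -0.011 to 0.107 for BCL2L11, -0.060 to 0.039 for MCL1, -0.233 to 0.117 for BAX, -0.140 to 0.168 for BBC3 and -0.085 to 0.088 for BID, of which -0.233 was called (edgeR adjusted p = 0.013).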
